A study of Homo sapiens with 6 samples.

Results

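Metallothioneins are small, cysteine-rich proteins that bind zinc, copper and cadmium, and this account covers 8 metallothionein genes (MT1E, MT1F, MT1G, MT1H, MT1M, MT1X, MT2A and MT3) with the metal-response factors MTF1 and MTF2. The 10 genes were chosen by symbol, and every HG-U133A probe set annotated to one of them was taken, which gave 19 of the 22283 probe sets on the array (10 of 13119 annotated genes). The cells were HL60, an established human promyelocytic leukemia line. One group received tretinoin (all-trans retinoic acid, 1 μmol/l) for 5 days, and the other received only its solvent, dimethyl sulfoxide (DMSO), which was at 0.1% in both. There were 3 arrays per condition, all from 1 cell line. According to the study, labeled product was pooled and then hybridized in parallel. The p-values below therefore describe how far repeat hybridizations differ, not separate cultures, and having 6 arrays limits their precision.

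In most cells, a rise in free zinc activates MTF1, a zinc finger transcription factor that binds metal response elements in the promoters of the MT1 and MT2A genes and of SLC30A1, which carries zinc out of the cell. MT1 and MT2A are expressed widely and bind metal ions through their cysteines, whereas MT3 is best known from brain. MTF2 was named for metal response element binding, but it is known chiefly as a Polycomb-like partner of the histone methyltransferase complex PRC2. The metallothionein genes lie next to each other on chromosome 16, where the RefSeq gene table orders the protein-coding ones as MT4, MT3, MT2A, MT1E, MT1M, MT1A, MT1B, MT1F, MT1G, MT1H and MT1X.

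Promoters are shown for MT2A, MT1H and MT1X, which had the most metal response element cores among the members in the table of RefSeq promoters used. Any link between these cores and the changes on the arrays was not tested. The sequences are the 250 bases before the annotated transcription start (build GRCh38.p14, plus strand), and capitals mark each match to TGCGCNC or TGCACNC on either strand. They cover chr16:56608334-56608583 for MT2A, chr16:56669564-56669813 for MT1H and chr16:56682220-56682469 for MT1X.
MT2A: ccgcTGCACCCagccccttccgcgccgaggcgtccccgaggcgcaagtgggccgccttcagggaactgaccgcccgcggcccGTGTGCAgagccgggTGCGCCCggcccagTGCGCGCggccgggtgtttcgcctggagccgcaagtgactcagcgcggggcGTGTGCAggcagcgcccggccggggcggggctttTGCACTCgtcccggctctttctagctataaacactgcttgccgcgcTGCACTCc
MT1H: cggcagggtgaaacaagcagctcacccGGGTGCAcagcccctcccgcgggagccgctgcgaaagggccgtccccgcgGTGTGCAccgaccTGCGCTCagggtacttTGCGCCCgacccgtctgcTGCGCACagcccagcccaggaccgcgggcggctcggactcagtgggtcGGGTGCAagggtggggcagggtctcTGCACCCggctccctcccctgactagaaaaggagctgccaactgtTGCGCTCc
MT1X: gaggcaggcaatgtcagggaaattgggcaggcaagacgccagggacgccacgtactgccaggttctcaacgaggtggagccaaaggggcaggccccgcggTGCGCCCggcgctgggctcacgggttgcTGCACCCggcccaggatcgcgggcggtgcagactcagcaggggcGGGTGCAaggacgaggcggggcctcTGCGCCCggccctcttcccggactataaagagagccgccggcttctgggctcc

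In windows that also take in the first 50 transcribed bases (300 bases in all), MT2A held 8 cores, MT1H 8 and MT1X 4. The corresponding window of SLC30A1 held 2, that of MTF2 held 1 and that of MTF1 held none. Among all 35116 promoter windows of the table, which include several starts for some genes, 29.6% held at least 1 core and 0.601% held at least 4. The windows of MT2A, MT1H and MT1X had a GC content of 72.0%, 68.3% and 67.0% against a median of 58.7% over all windows, and GC-rich cores are found more readily in GC-rich sequence. A match to these letters is a description and not a binding site. Of the members, 5 had a window in this promoter table, and MT1E, MT1F, MT1G, MT1M and MT3 had none there. It is separate from the gene table that gave the order of the cluster and lists all of them.

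**Figure D1:**
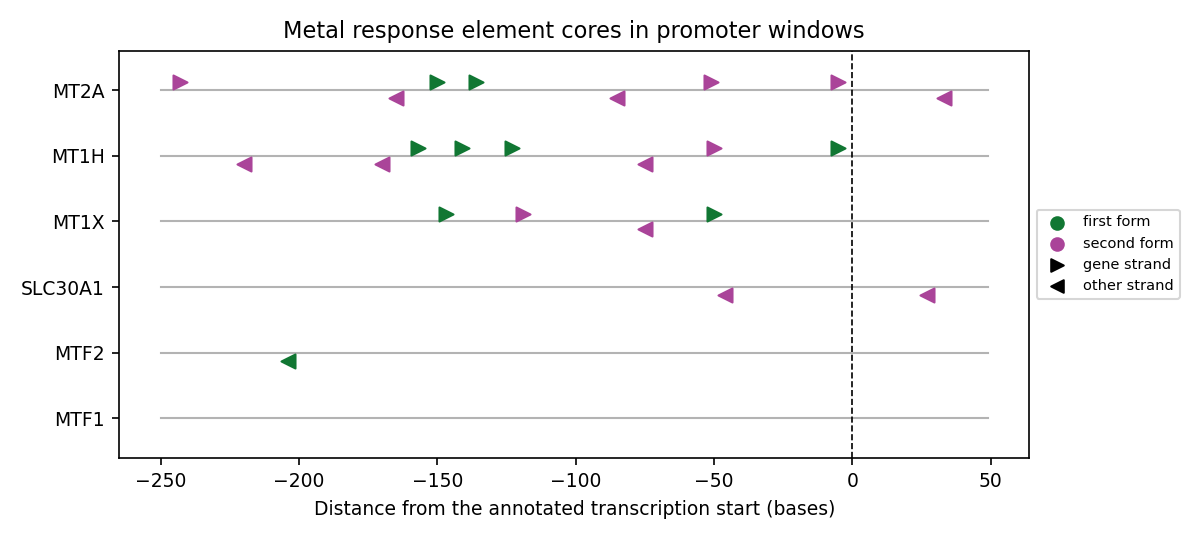
Matches to TGCGCNC (first form, green) and TGCACNC (second form, purple) in the promoter window of each gene, by distance in bases from the annotated transcription start, with triangles pointing right for the gene strand and left for the other strand. MT2A and MT1H each hold 8 matches and MT1X 4, whereas MTF1 holds none.

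The study also measured MT1X with a bead assay in which a pair of oligonucleotides is ligated on the cDNA, and their gene-specific parts show which stretch of MT1X was read outside the array.
MT1X upstream part: gctctcagatgtaaatagag
MT1X downstream part: caacctatataaacctggat
The bead values themselves are not analysed here. MT1X was picked by the study for that assay from its fall on these same arrays. Its presence in the assay therefore adds no evidence to the fall read by MT1X probe set 208581_x_at.

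Mean deposited signal ran from 91.3 to 152 over the 6 arrays, and each array was scaled to the mean of DMSO replicate 1. The measured markers of the labeled cell type, promyelocytic HL60, exceeded 20 on all 3 DMSO arrays. On the tretinoin arrays ELANE stayed below 20, and PRTN3 and CTSG each exceeded 20 on only 1. CD33, also listed, had no probe set with a single symbol. All 6 measured markers of promyelocytes and HL60 (MPO, ELANE, PRTN3, AZU1, CTSG and MYC) were lower in tretinoin. Their summed scaled signal fell from 5894 to 6907 on the DMSO arrays to 344 to 370.5 on the tretinoin arrays. MYC, which is not specific to promyelocytes, alone read 2605, 2485 and 3092 in DMSO. All 4 markers of retinoid-treated HL60 (CD38, ITGAM, CYBB and NCF1) were higher on their brightest probe set, with a summed signal of 426 to 471 in DMSO and 2671 to 3243 in tretinoin, although a dimmer ITGAM probe set did not pass (log2 change -0.011, limma adjusted p = 0.965). Of 13 measured markers of T cells, B cells, red cell precursors, epithelium and fibroblasts, 6 were tested and none was called by limma (0 at an unadjusted p below 0.05), 5 were below 20 on all arrays, and their summed signal of 311 to 353 in DMSO overlapped that of 299 to 387 in tretinoin. The 3' to 5' signal ratio of the ACTB control probe sets, which rises as RNA degrades, was 1.38 to 1.42 in DMSO and 1.14 to 1.17 in tretinoin, whereas that of GAPDH overlapped, at 1.06 to 1.17 in DMSO and 1.15 to 1.19 in tretinoin. The part of these differences in the changes below was not tested. In bulk RNA, fewer cells that express a gene and less RNA of it per cell cannot be told apart.

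After 5 days of tretinoin, most metallothionein probe sets were lower, MTF1 was higher on its brighter probe set and no MTF2 probe set passed the test. Of 12 metallothionein probe sets, 10 exceeded a scaled signal of 20 on at least 3 arrays and were tested with limma. Of these, 8 were lower (an adjusted p below 0.05 after Benjamini-Hochberg correction, with 1.5-fold as the smallest fitted change accepted), none was higher (0 also at an unadjusted p below 0.05) and 2 did not pass. Over all 13374 probe sets tested, 13.8% were called lower and 13.6% were called higher. The median log2 change of the 10 was -1.18, against -0.031 over all probe sets tested. For 9 of the 10, every tretinoin array lay below every DMSO array. Over all probe sets tested, the conditions lay apart in either direction for 46.0%, and the share in this direction alone was not counted. The fitted falls ranged from 1.79-fold to 3.44-fold in MT1E, MT1F, MT1G, MT1H, MT1X and MT2A. The remaining call was that of MT3, which had tretinoin arrays at the floor and was at least 1.75-fold lower. Of the 10, 9 have the suffix _x_at, which the manufacturer gives to probe sets with probes that may also bind other transcripts, so they are not independent readings, and how far they share transcripts was not tested. Without the _x_at probe sets, only the call for MT3 is left.

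**Figure D2:**
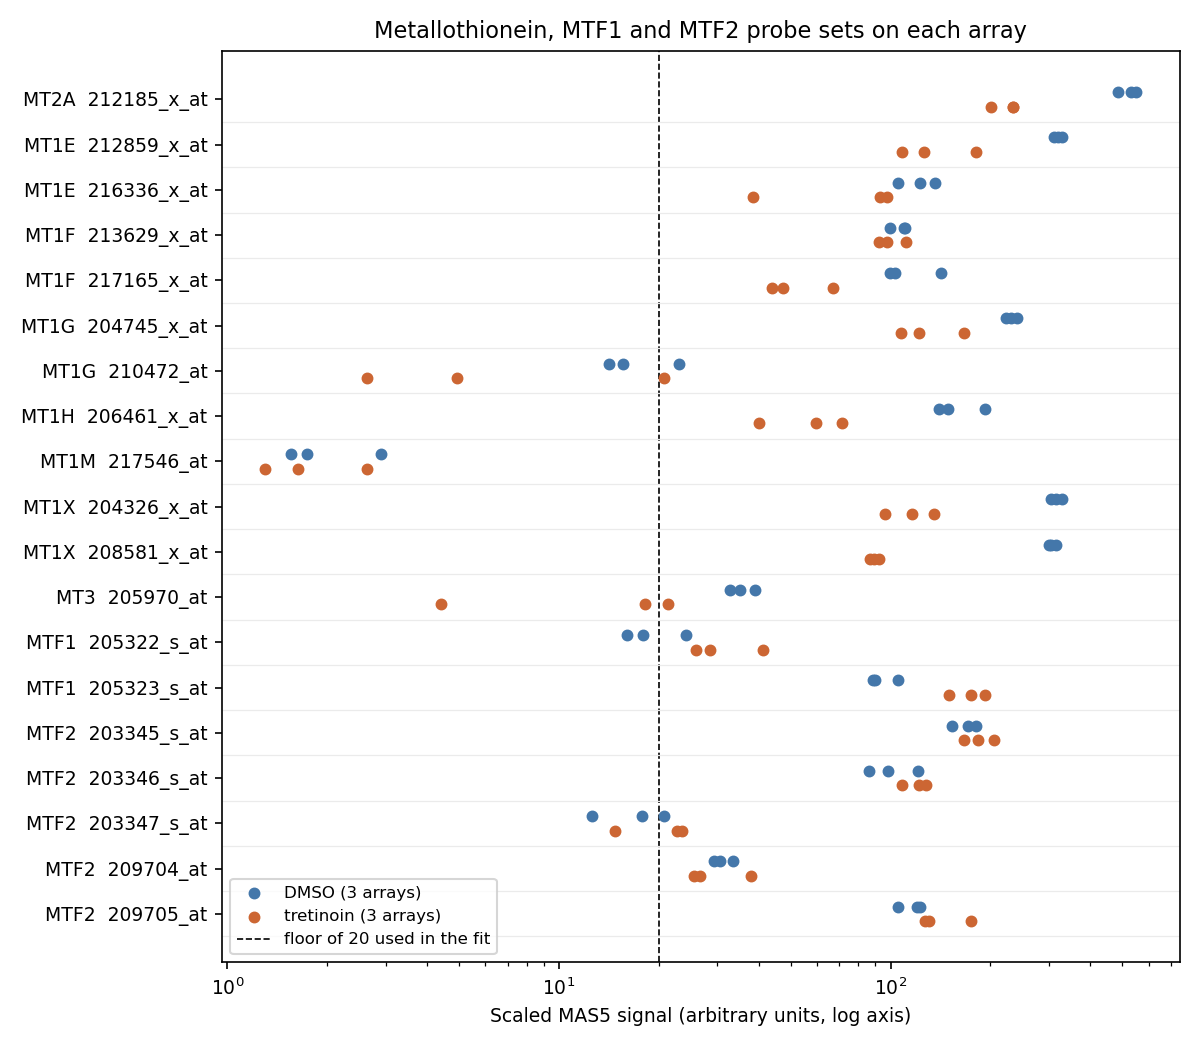
Scaled MAS5 signal (log axis) of each of the 19 probe sets on the 3 DMSO arrays (blue) and the 3 tretinoin arrays (orange), each point 1 array, with a dashed line at the floor of 20. MT2A, MT1X and MT1H lie lower on all 3 tretinoin arrays than on any DMSO array, and MT1M lies below the floor on all 6.

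MT2A, the metallothionein that is usually the most abundant in human cells, had scaled signals of 550.4, 530.2 and 484 on the DMSO arrays and of 234, 201 and 234 on the tretinoin arrays. The lowest DMSO array was thus well above the highest tretinoin array. The fitted change was 2.34-fold lower (log2 change -1.23 ± 0.13, SE, n = 3 arrays each), with an adjusted p of 0.000557 by limma.

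MT1X, an MT1 isoform expressed in many tissues, showed the largest change among the members. Probe set 208581_x_at read 316, 304 and 300.4 in DMSO and 92.3, 86.5 and 88.9 in tretinoin, with little spread among the arrays of either condition. It was 3.44-fold lower (log2 change -1.78 ± 0.11, SE, limma adjusted p = 8.42e-05). The other probe set of MT1X, 204326_x_at, read 304.5, 315 and 329.5 in DMSO and 116, 95.9 and 135 in tretinoin and was 2.76-fold lower (limma adjusted p = 0.000567). Its platform accession is a transcript of the neighboring pseudogene MT1L, so what it reads of MT1X itself is uncertain.

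MT1H, which lies beside MT1G in the cluster, read 139.5, 149 and 193 in DMSO and 59.6, 40.2 and 71.4 in tretinoin. The groups were apart although each was spread, and the fitted change was 2.86-fold lower (log2 change -1.52 ± 0.24, SE, limma adjusted p = 0.00318). MT1G, a metallothionein often silenced in tumors, read 231, 241 and 222 in DMSO and 108, 122 and 166 in tretinoin on probe set 204745_x_at. It was 1.79-fold lower (log2 change -0.84 ± 0.18, SE, limma adjusted p = 0.0117), and this call was lost with no filter on dim probe sets (adjusted p = 0.0515). The other MT1G probe set, 210472_at, read 15.6, 23.1 and 14.1 in DMSO and 4.91, 20.7 and 2.63 in tretinoin, so it exceeded 20 on only 1 array of each condition and was not tested.

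MT1E and MT1F, further MT1 isoforms, each had 1 probe set that was lower and 1 that did not pass. MT1E probe set 212859_x_at read 311, 329.5 and 321 in DMSO and 108, 181 and 126 in tretinoin, and was 2.37-fold lower (log2 change -1.25 ± 0.20, SE, limma adjusted p = 0.00334). MT1E probe set 216336_x_at read 105, 122 and 136 in DMSO and 38.5, 93.1 and 97.4 in tretinoin. Its arrays did not overlap either, but tretinoin replicate 1 stood far below the other 2, and the log2 change of -0.78 had a 95% confidence interval from -1.62 to 0.069 (limma adjusted p = 0.148). Without tretinoin replicate 1 the log2 change of this probe set was -0.34.

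MT1F probe set 217165_x_at read 103, 99.4 and 142 in DMSO and 47.4, 43.8 and 67.0 in tretinoin. It was 2.19-fold lower (log2 change -1.13 ± 0.22, SE, limma adjusted p = 0.00743). MT1F probe set 213629_x_at read 110.5, 99.3 and 109.9 in DMSO and 92.0, 97.2 and 111 in tretinoin, so its groups overlapped. Its log2 change was -0.092, with a 95% confidence interval from -0.41 to 0.22 (limma adjusted p = 0.660). The 2 probe sets annotated to MT1F therefore disagree, and the change of MT1F is uncertain.

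MT3 and MT1M were near or below the floor. MT3 read 39.1, 35.2 and 32.8 in DMSO and 18.1, 21.3 and 4.41 in tretinoin. It exceeded 20 on only 1 tretinoin array and was at least 1.75-fold lower (limma adjusted p = 0.00307). MT3 is the member of the metallothionein calls whose probe set lacks the _x_at suffix. MT1M lay between 1.30 and 2.90 on all 6 arrays, so no level can be given. Outside the 8 genes, the metallothionein-like gene MT1HL1, which lies on chromosome 1, read 182, 99.4 and 224 in DMSO and 167, 129.8 and 162 in tretinoin on an _x_at probe set and did not pass (log2 change -0.068, 95% confidence interval -0.78 to 0.64). MT4, known from squamous epithelia, lay between 8.70 and 35.9 on the 6 arrays and did not pass either.

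MTF1, the zinc-sensing activator of metallothionein genes, moved the other way from the metallothioneins. Probe set 205323_s_at read 88.3, 89.6 and 105 in DMSO and 149.9, 192 and 175 in tretinoin. All tretinoin arrays were above all DMSO arrays, and the fitted change was 1.82-fold higher (log2 change 0.87 ± 0.15, SE, limma adjusted p = 0.00455). Without scaling of the arrays, which moved the median log2 change of all tested probe sets to -0.21, the rise was 0.66 on the log2 scale and did not pass (adjusted p = 0.0681). The dimmer probe set 205322_s_at read 24.1, 17.9 and 16.1 in DMSO and 26.0, 28.5 and 41.3 in tretinoin and did not pass (log2 change 0.55, 95% confidence interval 0.076 to 1.03, limma adjusted p = 0.0788).

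MTF2, the Polycomb-like protein, had 5 probe sets, of which none passed in limma (0 also at an unadjusted p below 0.05). The brightest, 203345_s_at, read 171, 181 and 154 in DMSO and 184, 167 and 206 in tretinoin, and the groups overlapped. Its log2 change was 0.14, with a 95% confidence interval from -0.20 to 0.47. Probe set 209705_at, with the largest rise, read 120.5, 105 and 122.7 in DMSO and 175, 130.4 and 127 in tretinoin. It is the 1 MTF2 probe set whose arrays did not overlap, and it did not pass (log2 change 0.30 ± 0.17, SE, limma adjusted p = 0.227). Probe set 203346_s_at lay between 86.4 and 128 over the 6 arrays, 209704_at between 25.5 and 38.1 and 203347_s_at between 12.6 and 23.5, the last around the floor. Over the 5 probe sets the log2 changes ran from -0.076 to 0.30. The widest interval, that of 209704_at, ran from -0.51 to 0.36 and that of 209705_at from -0.096 to 0.69, so a rise of MTF2 of up to 1.62-fold on the latter is within the error of these arrays.

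**Figure D3:**
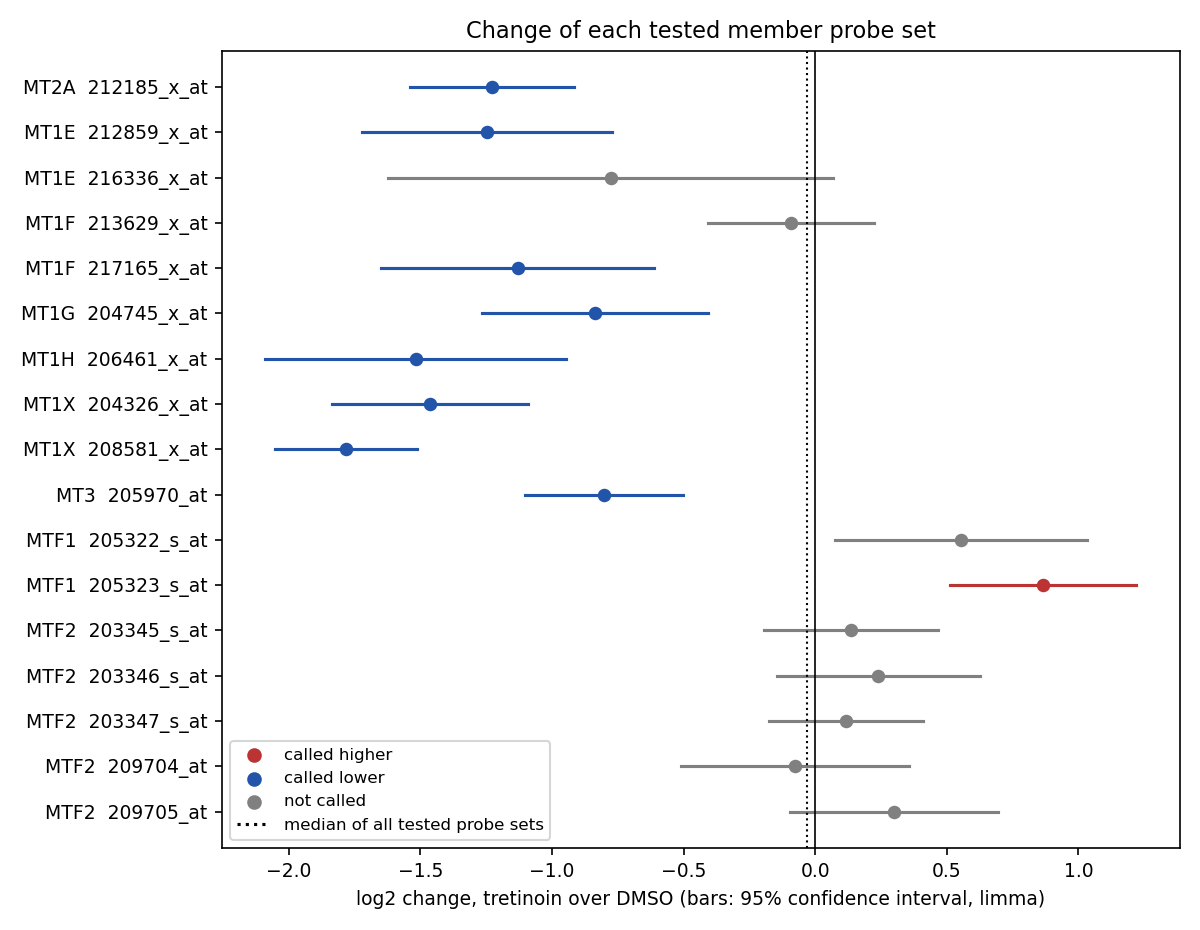
Fitted log2 change (tretinoin over DMSO) of the 17 tested probe sets, with 95% confidence intervals from limma, blue where called lower, red where called higher and gray where not called, and a dotted line at the median of all tested probe sets (-0.031). The metallothionein intervals lie below 0 except those of MT1E 216336_x_at and MT1F 213629_x_at, and MTF1 lies above 0.

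To ask whether the members changed by unequal amounts, each of the 13 other probe sets above 20 on all 6 arrays was set against MT2A within each array, and the difference was compared between conditions with an exact permutation test over arrays (two-sided). With 3 arrays against 3 this exact test cannot go below p = 0.1, so no pair could pass, and the sizes are given. MT1X probe set 208581_x_at fell by 0.56 more than MT2A on the log2 scale (difference -0.56), and its within-array values did not overlap between conditions. MT1F probe set 213629_x_at differed from MT2A by 1.14 and MTF1 probe set 205323_s_at by 2.09, also without overlap (exact p = 0.1 for each of the 3, adjusted p = 0.1625 over the 13 pairs). These did not stand apart from other pairs. MT1G probe set 204745_x_at (difference 0.39) and MTF2 probe sets 203345_s_at, 203346_s_at, 209704_at and 209705_at (1.15 to 1.53) also lacked overlap, with the same exact p. MT2A itself had a log2 change of -1.23, so a probe set that hardly changed can separate from it too. How often probe sets of other genes separate from MT2A in this way was not counted. The differences from MT2A were -0.29 for MT1H and -0.020 for MT1E probe set 212859_x_at, and for both the within-array values of the conditions overlapped. Those of MT1X 204326_x_at, MT1E 216336_x_at and MT1F 217165_x_at overlapped as well.

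Other genes that handle zinc moved in both directions. Of 7 zinc exporters of the SLC30 family with a probe set, 3 were tested, and SLC30A1 alone was called. SLC30A1, the plasma membrane exporter known as a target of MTF1, read 69.7, 54.5 and 84.7 in DMSO and 232, 198 and 205 in tretinoin. It was 3.08-fold higher (log2 change 1.63 ± 0.19, SE, limma adjusted p = 0.000744), the opposite direction to MT2A and MT1X. Its promoter window held 2 metal response element cores, as given above, 1 before the annotated start and the other after it. Of all promoter windows, 8.60% held at least 2. Any link between these cores and the rise was not tested.

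Of 8 zinc importers of the SLC39 family with a probe set, 6 were tested, of which 2 were lower, 1 was higher and 3 did not pass. SLC39A14, which carries zinc, manganese and iron into cells, read 138, 147 and 138 in DMSO and 12.2, 29.9 and 5.26 in tretinoin. It exceeded 20 on only 1 tretinoin array and was at least 6.05-fold lower (limma adjusted p = 0.000110). SLC39A6, a plasma membrane importer, was 1.86-fold lower, from 241 ± 25.1 to 129 ± 13.5 (SD, n = 3, limma adjusted p = 0.00351), and its other probe set was lower as well (log2 change -0.70). SLC39A1, a broadly expressed importer, read 11.3, 12.5 and 34.4 in DMSO and 45.5, 53.3 and 56.3 in tretinoin and was at least 2.09-fold higher (limma adjusted p = 0.0113). That call was lost with a floor of 40 and with no filter.

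Of 9 copper-handling genes with a probe set, 8 were tested, of which 2 were higher, 1 was lower and 5 did not pass. ATP7A, the pump that exports copper or loads it into secreted enzymes, read 28.6, 39.2 and 36.4 in DMSO and 118, 108 and 108 in tretinoin and was 3.23-fold higher (log2 change 1.69 ± 0.16, SE, limma adjusted p = 0.000295). Its dimmer probe set was higher too (log2 change 0.76, adjusted p = 0.0336). SLC31A2, a low-affinity copper transporter, rose 2.74-fold, from 28.3 ± 5.16 to 76.5 ± 4.71 (SD, n = 3, limma adjusted p = 0.000802). SOD1, the copper and zinc superoxide dismutase, fell 2.36-fold, from 802 ± 25.6 to 344 ± 66.4 (SD, n = 3, limma adjusted p = 0.00140).

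Of 11 genes of glutathione, thioredoxin and metal stress, all tested, 4 were higher, 1 was lower and 6 did not pass. GCLC, the catalytic subunit of the enzyme that starts glutathione synthesis and a known target of MTF1, read 62.3, 61.6 and 66.5 in DMSO and 138, 139 and 141 in tretinoin and was 2.19-fold higher (limma adjusted p = 0.000442). GSS, which completes glutathione synthesis, was 1.78-fold lower (adjusted p = 0.0117), a call lost with no filter (adjusted p = 0.0509), and its other probe set was lower as well (log2 change -1.07). The rises of HMOX1, heme oxygenase 1 (at least 1.90-fold, adjusted p = 0.0394), GSR, glutathione reductase (1.52-fold, adjusted p = 0.0188), and NFE2L2, a transcription factor of the oxidative stress response (1.51-fold, adjusted p = 0.0193), lay close to the thresholds and were lost under 8, 7 and 6 of the alternative settings. NFE2L2 is named because it completes a short count.

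Of the core and accessory subunits of PRC2, with which MTF2 associates, 8 were tested, of which 3 were lower, none was higher in limma (1 at an unadjusted p below 0.05, EED) and 5 did not pass. EZH2, a methyltransferase subunit, read 107, 119 and 106 in DMSO and 25.7, 21.1 and 42.1 in tretinoin. It was 3.89-fold lower (log2 change -1.96 ± 0.25, SE, limma adjusted p = 0.00129). EZH1, the other methyltransferase subunit listed, did not pass (log2 change 0.15, limma adjusted p = 0.491). RBBP4, a histone-binding subunit shared with other complexes, was 1.61-fold lower (adjusted p = 0.00473). SUZ12, a scaffold subunit, was 1.51-fold lower (adjusted p = 0.0240), a call lost under 7 of the alternative settings. MTF2, with a log2 change between -0.076 and 0.30, thus stood beside 1 methyltransferase subunit whose signal fell, EZH2, and another that did not pass, EZH1. Over the 5 lists together, 8 genes were higher (5 without DMSO replicate 1) and 7 were lower. The lists held 3, 6, 8, 11 and 8 tested genes in the order given. Among all 13374 probe sets tested, 13.6% were called higher and 13.8% were called lower. The lists show each gene by its brightest probe set alone, whereas these shares cover every probe set tested. Whether the lists differ from these shares was not tested. Median log2 changes of the tested genes were 0.057 for zinc export, -0.33 for zinc import, -0.094 for copper handling, 0.14 for thiol and metal stress and -0.19 for PRC2, beside -0.031 over all probe sets tested.

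**Figure D4:**
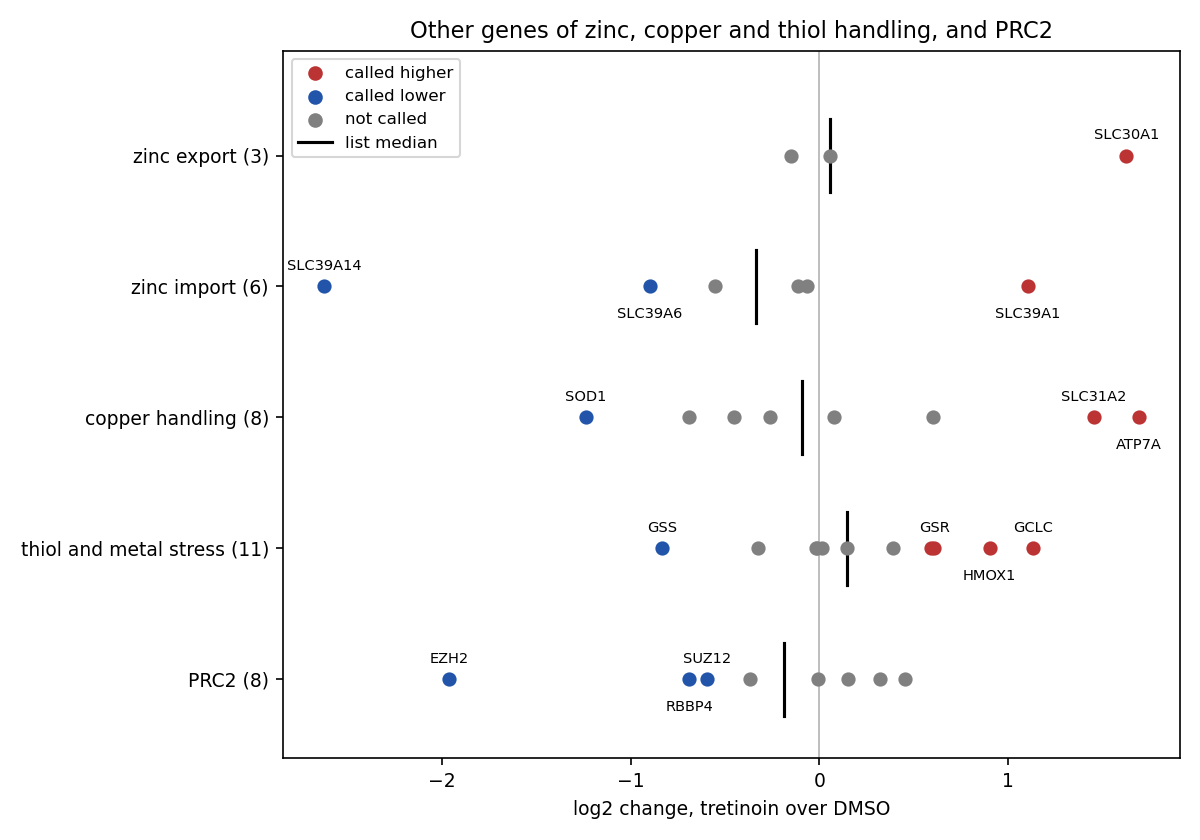
Fitted log2 change (tretinoin over DMSO) of each tested gene of 5 lists, with the number tested in brackets, red where called higher, blue where called lower and gray where not called, and black bars at the list medians. SLC30A1, ATP7A and SLC31A2 lie farthest to the right, and SLC39A14 and EZH2 farthest to the left.

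The probe sets whose log2 pattern over the 6 arrays was most like that of MT2A, after centering each on its own mean, were those of TARS1, ALG5, CDC42EP3, CITED2 and FARSA, with root mean square differences of 0.048, 0.051, 0.052, 0.063 and 0.071. TARS1 and FARSA are aminoacyl-tRNA synthetases, ALG5 acts in N-glycan assembly, CDC42EP3 binds the GTPase CDC42 and CITED2 is a transcriptional coregulator. Their fitted falls of 2.24-fold to 2.42-fold were near that of MT2A. With 6 arrays in 2 conditions, this likeness reflects little more than a fold change of similar size.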

How the data were processed

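The authors amplified and labeled total RNA of HL60 cells, hybridized it to HG-U133A arrays and deposited linear MAS5 signal intensities, 1 per probe set, before scaling between arrays. As in the study's methods, arrays were scaled here to equal mean signal (factors 0.820 to 1.36) and values below 20 were set to 20. Log2 values were fitted with limma 3.58.1 (R 4.3.3, statmod 1.5.0), with a mean per condition and no covariates. Folds are fitted, except those given as "at least", which are ratios of condition means where an array lay at the floor. Probe sets were named through GEO's platform annotation. A gene outside the 10 is shown by its brightest probe set with a single symbol. The genes, the lists and the rules were chosen with earlier results of these data known. All member probe sets are named, and from each list up to 3 calls per direction, with SLC30A1, EZH2 and EZH1. The fit was tested on simulated data. Replicate numbers did not pair the arrays. Promoters came from RefSeq (GRCh38.p14). Python 3.11.15, pandas 2.3.3 and matplotlib 3.10.9 were used. Alternatives covered scaling, floor, filter, block, variance prior, minimum change and each array left out.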

Additional observations from a re-analysis of the deposited data

How the results depend on the processing

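The falls of MT2A, MT1X, MT1H, MT3, MT1E 212859_x_at and MT1F 217165_x_at kept their direction and call under every alternative that tested them. MT3 was not tested with a floor of 40 or where a signal above 20 on all 6 arrays was required. The member probe sets called lower numbered 8, and 7 to 9 under all alternatives except the one without _x_at probe sets, which left 1. Without scaling, no member was called higher (0 against 1 for MTF1), and over all probe sets 1142 were higher, against 1824, and 2312 lower, against 1850. With arrays left out, the other metal-handling and PRC2 genes called higher numbered 5 to 7, against 8. Directions turned only for values near 0. MTF2 203345_s_at was -0.067 and MT4 was -0.049 without scaling. With arrays left out, MTF2 209704_at ran from -0.26 to 0.031, MT4 from -0.039 to 0.29 and MT1HL1 from -0.41 to 0.18. The difference from MT2A turned to 0.018 for MT1E 212859_x_at with an offset of 16 and ran from -0.30 to 0.18 with arrays left out, and that of MT1F 217165_x_at ran from -0.053 to 0.31. The replicate numbers share only a label, since same-numbered arrays correlated in their deviations at -0.027, -0.014 and 0.066, and DMSO replicate 1 correlated best with tretinoin replicate 2 (0.072). With a replicate block, 8 member probe sets were lower and 1 was higher, the rises of GSR (adjusted p = 0.0542) and HMOX1 (adjusted p = 0.0620) were lost, and 1743 and 1758 of all probe sets were higher and lower. Probe sets near the floor of 20 (MT3, MT1M, MT4, MT1G 210472_at and SLC39A14) are limited by signal over background.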

Other observations

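Of the 8 protein-coding genes nearest to the metallothionein cluster on chromosome 16, 4 on each side in the order of the RefSeq gene table, 6 had a probe set with a single symbol and 5 were tested. These genes were chosen after the values of the cluster were seen. NUP93, a nuclear pore protein that follows MT1X, read 78.0, 65.1 and 66.7 in DMSO and 21.9, 5.86 and 10.8 in tretinoin and was at least 3.39-fold lower (limma adjusted p = 0.000139). OGFOD1, an oxygenase that acts on ribosomal protein, was 1.61-fold lower (adjusted p = 0.00865). HERPUD1, a protein of endoplasmic reticulum quality control, was 1.58-fold lower (adjusted p = 0.0117), a call lost without DMSO replicate 2 (log2 change -0.58). NUDT21, which acts in pre-mRNA 3' end processing, did not reach the minimum change (1.44-fold lower, adjusted p = 0.0342), and SLC12A3, a salt transporter of the kidney, did not pass. All 5 had a negative log2 change, but that of SLC12A3 was small (-0.20) and its arrays overlapped between conditions. The median log2 change over all probe sets tested was itself slightly negative (-0.031). Of the 5 genes, 3 were called lower, beside 13.8% of all 13374 probe sets tested. Each neighbor is shown by its brightest probe set alone, whereas that share covers every probe set tested. Whether these neighbors differ from that share was not tested.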
